A study of Mus musculus with 13 samples.

Results

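The transcripts described here are those of the fibroblast growth factor (FGF) system in the cerebral meninges of newborn mice. They comprise every gene named as an FGF ligand (Fgf with a number), an FGF receptor (Fgfr1 to Fgfr4 and the receptor-like Fgfrl1) or a feedback inhibitor of the Sprouty (Spry1 to Spry4) or Spred (Spred1 to Spred3) families. Each was taken by its symbol, and the choice was made with earlier results of these data known. The array measured 34 such genes out of 19938 genes tested, and each was read from its brightest probe set.

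RNA was taken from the meninges of 13 C57BL6 pups of 1 litter, with 1 mouse per array. The mutants (n = 4) were Pdgfc-/-; Pdgfra GFP/+, lacking both copies of the growth factor gene Pdgfc and carrying a GFP allele in place of 1 functional copy of its receptor gene Pdgfra. The controls (n = 9) were all other littermates, of the genotypes Pdgfc+/+, Pdgfc+/-, Pdgfc-/-, Pdgfc+/+; Pdgfra GFP/+ or Pdgfc+/-; Pdgfra GFP/+. Which of these genotypes each control had is not given, so effects of Pdgfc loss alone cannot be told apart from those of the combined genotype. The meninges were dissected from the brain and measured as bulk tissue, so in every result below fewer cells of a type and less RNA per cell cannot be told apart.

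FGFs are secreted proteins that bind heparan sulfate and activate receptor tyrosine kinases on neighbouring cells, which signal mainly through the Ras and MAP kinase cascade. Meninges are a known source of signals for the cortex beneath them, and FGF signalling is known in this region for its part in the growth and patterning of the forebrain and in the formation of skull bone. A separate branch of the family, the FGF homologous factors, is not secreted, stays inside the cell and binds the tail of voltage-gated sodium channels in neurons.

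The array intensities varied in brightness, with medians of 56.0 to 89.7 in mutants and 44.1 to 89.0 in controls. Pdgfc had an intensity of 25.7 ± 3.41 in mutants (SD, n = 4) and 164 ± 86.8 in controls (SD, n = 9). Control 2 lay at 5.88, below every mutant. Pdgfra had 1078 ± 352 in mutants and 1764 ± 429 in controls. All 4 mutants and controls 1, 5 and 8 had high Y-linked Eif2s3y and almost no Xist, and the other 6 controls the reverse, so the groups also differed in sex composition. As a level below which a transcript was not read as present, the 95th percentile of 1015 olfactory receptor genes was taken, an intensity of 63.6 over all arrays. Of the 34 genes, 22 exceeded it in both groups, 3 in the mutants alone (Fgf12, Fgf13 and Fgf14) and 1 in the controls alone (Fgfr4). The other 8 (Fgf3, Fgf5, Fgf6, Fgf7, Fgf10, Fgf11, Fgf20 and Spry3) stayed below it in both.

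Of the 34 genes, 3 rose in mutant meninges, which is 8.82% of them, against 8.58% of all genes tested. A further 2 genes fell, 5.88% of them, against 6.31% of all genes tested. A gene rose or fell here at an adjusted p under 0.05 in limma on log2(intensity + 16), with Benjamini-Hochberg adjustment over all 19938 genes, of which 14.9% passed in either direction. The median log2 fold change of the 34 genes was 0.0041 and that of all genes 0.0043. Both shares were thus near those of all genes, and the count of changed genes is no result about the FGF system. By role, the genes that rose were all FGF homologous factors, and the genes that fell were both receptors. No secreted ligand and no feedback inhibitor passed the test.

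**Figure D1:**
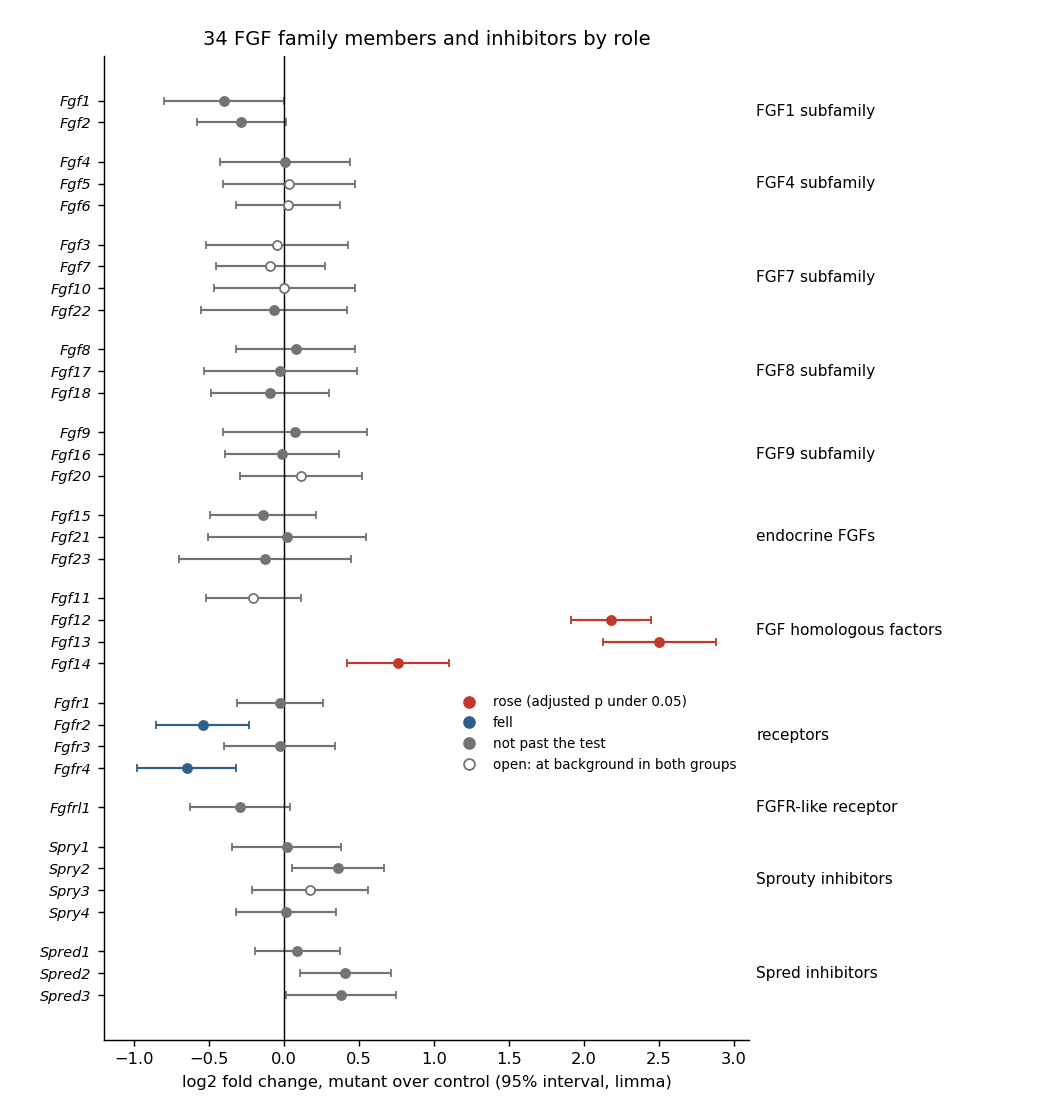
Log2 fold change of mutants over controls for the 34 genes, grouped by role, with 95% intervals from limma. Fgf12, Fgf13 and Fgf14 lie to the right of 0 at 2.18, 2.50 and 0.76, Fgfr2 and Fgfr4 lie to the left at -0.54 and -0.65, and open circles mark genes below the background level in both groups.

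The 4 FGF homologous factors are encoded by Fgf11 to Fgf14. The promoter windows of these genes are shown because 3 of the 4 rose together. Each holds the 250 bases before and the 50 bases after a transcription start in RefSeq (GRCm38.p6), and 25 of the 34 genes had such a window. Where a gene had several windows (4 each for Fgf12 and Fgf13), the most upstream one is given. The windows of Fgf12 and Fgf13 lie at the outer end of the annotated gene, and the single windows of Fgf14 and Fgf11 lie inside it. All lie on the minus strand, Fgf12 at chr16:28753194-28753493, Fgf13 at chrX:59585523-59585822, Fgf14 at chr14:124192497-124192796 and Fgf11 at chr11:69802231-69802530. Capitals mark the E-box CAGCTG, the letters bound by many neurogenic helix-loop-helix factors, and the GC box GGGCGG, which reads CCGCCC on the other strand.
Fgf12: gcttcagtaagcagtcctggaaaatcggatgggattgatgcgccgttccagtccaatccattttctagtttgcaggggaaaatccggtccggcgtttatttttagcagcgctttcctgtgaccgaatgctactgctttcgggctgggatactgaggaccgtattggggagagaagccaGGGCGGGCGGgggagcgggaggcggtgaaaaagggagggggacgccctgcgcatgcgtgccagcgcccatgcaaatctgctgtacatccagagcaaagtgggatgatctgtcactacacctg
Fgf13: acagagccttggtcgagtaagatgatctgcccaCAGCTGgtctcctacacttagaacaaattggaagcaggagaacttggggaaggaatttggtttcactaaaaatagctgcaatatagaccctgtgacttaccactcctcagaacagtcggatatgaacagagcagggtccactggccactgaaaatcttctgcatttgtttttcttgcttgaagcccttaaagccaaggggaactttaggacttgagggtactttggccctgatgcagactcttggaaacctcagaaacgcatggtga
Fgf14: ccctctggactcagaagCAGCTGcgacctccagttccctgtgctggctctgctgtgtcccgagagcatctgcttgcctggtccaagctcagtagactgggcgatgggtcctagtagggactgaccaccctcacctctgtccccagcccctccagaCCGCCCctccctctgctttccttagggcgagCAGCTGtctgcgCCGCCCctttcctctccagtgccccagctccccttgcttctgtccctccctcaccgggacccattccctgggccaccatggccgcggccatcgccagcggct
Fgf11: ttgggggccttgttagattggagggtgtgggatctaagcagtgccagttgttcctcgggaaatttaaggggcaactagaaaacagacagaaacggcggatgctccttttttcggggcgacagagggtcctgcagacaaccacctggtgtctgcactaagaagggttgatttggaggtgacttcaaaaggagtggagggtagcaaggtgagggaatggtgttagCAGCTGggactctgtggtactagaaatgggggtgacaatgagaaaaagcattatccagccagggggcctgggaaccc
The printed Fgf12 window held 2 overlapping GC boxes and 0 E-boxes. That of Fgf13 held 1 E-box and 0 GC boxes, and that of Fgf14 held 2 of each. The window of Fgf11, which was below background in both groups, held 1 E-box and 0 GC boxes. Among all 32851 windows of the same length, 16.3% held the E-box and 35.7% the GC box on either strand. No E-box overlapped a GC box in the printed windows. Counting every window of a gene, the GC box was in 3 of 4 for Fgf12, 2 of 4 for Fgf13, the 1 for Fgf14 and 0 for Fgf11, and the E-box in 0 of 4 for Fgf12 and 1 each for the other genes.

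Fgf13, which lies on the X chromosome and whose protein binds sodium channels and microtubules, had intensities of 288.76, 317.55, 273.59 and 298.44 in the 4 mutants. In the 9 controls it ranged between 21.5 and 61.4, with a median of 37.7. The lowest mutant was thus far above the highest control. The means were 295 ± 18.4 in mutants (SD, n = 4) and 40.3 ± 14.3 in controls (SD, n = 9), a log2 fold change of 2.50 (SE 0.18, limma adjusted p = 4.11e-09). No control exceeded the background level of its own array, so the rise is a bound, at least 4.03-fold when each control is set to that level. Among the mice with the Y-linked pattern alone, the controls had 21.5, 46.6 and 35.3, and the log2 fold change was 2.65 (adjusted p = 2.38e-11), so Fgf13 also differed without the controls of the other sex.

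Fgf12, a sodium channel partner of neurons and heart muscle, had intensities of 172.41, 158.04, 148.44 and 165.39 in mutants. The controls ranged between 16.1 and 34 with a median of 21.6, again without overlap. The means were 161 ± 10.3 in mutants (SD, n = 4) and 23.3 ± 5.56 in controls (SD, n = 9), with a log2 fold change of 2.18 (SE 0.13, adjusted p = 5.13e-10). All 4 mutants and none of the controls exceeded the background of their array, which gives a rise of at least 2.30-fold. Fgf12 and Fgf13 were the only members of the 34 whose 4 mutants all lay above the 9 controls, a pattern that 6.40% of all genes tested showed, and the only members with a fold over 2. No member had all mutants below the controls (3.04% of all genes).

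Fgf14, mutated in a human form of inherited ataxia, rose less. Its intensities were 86.72, 98.62, 66.52 and 86.08 in mutants, against 27.5 to 76.1 in controls with a median of 40.7. The groups overlapped through a single pair of mice, control 9 at 76.1 and mutant 3 at 66.52. The means were 84.5 ± 13.3 in mutants (SD, n = 4) and 44.1 ± 13.6 in controls (SD, n = 9), a log2 fold change of 0.76 (SE 0.16, adjusted p = 0.00208). The background of the array was exceeded in 3 of 4 mutants and 0 of 9 controls, for a rise of at least 1.296-fold.

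Fgf11, the remaining homologous factor, had 43.8 ± 6.47 in mutants (SD, n = 4) and 53.6 ± 12.5 in controls (SD, n = 9), both under the background level. Its log2 fold change was -0.20 (adjusted p = 0.539), with 37.8 to 51.5 in mutants inside the control range of 34.4 to 68.5. A change in Fgf11 was not detectable at this signal.

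**Figure D2:**
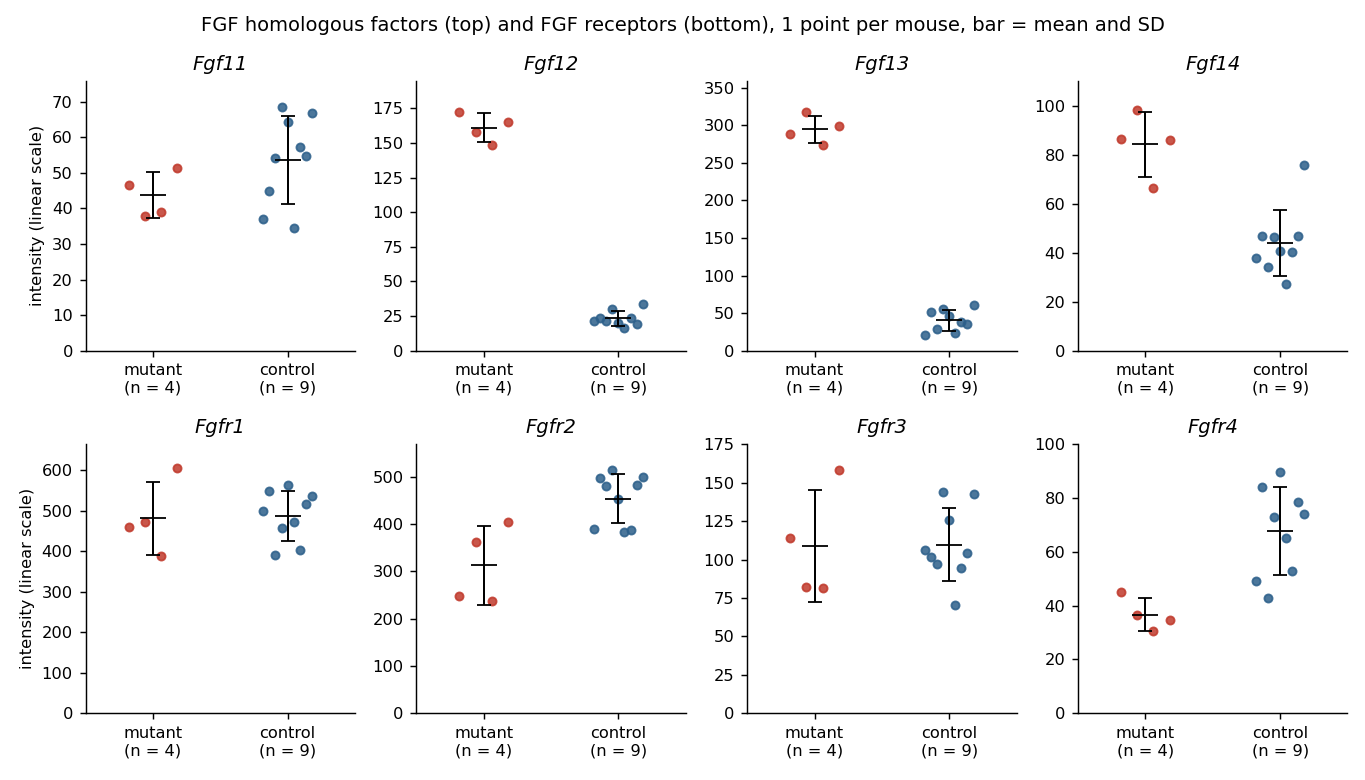
Intensity (linear scale) of the 4 FGF homologous factors in the upper row and the 4 FGF receptors in the lower row, with 1 point per mouse and bars for the mean and SD of 4 mutants and 9 controls. Mutants and controls are fully apart for Fgf12 and Fgf13, meet through control 9 for Fgf14, and overlap for Fgfr2 and Fgfr4, whose means are lower in mutants.

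Among the genes of the sodium channels that these factors bind, 4 neuronal ones were measured, of which 3 rose and 1 did not pass the test. Of all genes tested 8.58% rose. Scn3a, the channel typical of embryonic and newborn brain, had 188 ± 17.97 in mutants and 25.4 ± 9.96 in controls, a difference of 2.33 on the log2 scale (adjusted p = 2.56e-09) and a rise of at least 2.65-fold, since no control exceeded its array's background. Scn2a, found on axons of excitatory neurons, had 448 ± 39.4 in mutants and 108 ± 44.3 in controls (1.99, adjusted p = 3.14e-06). Scn1a passed the test at 0.46 on the log2 scale (adjusted p = 0.0180) but stayed below the background level in both groups, so no fold is given for it. Scn8a, at 378 in mutants and 282 in controls, had 0.42 (adjusted p = 0.261).

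Markers of neurons, which the meninges should largely lack, moved with these genes. Of 17 neuron markers 16 rose, with a median log2 fold change of 2.69, against 0.0043 for all genes. Their summed intensity was 15140 to 18725 in mutants and 1795 to 4766 in controls. The synaptic Snap25 lay between 499 and 614 in mutants and between 13.5 and 66.9 in controls, and the neurofilament gene Nefl between 400.2 and 566 in mutants and between 6.79 and 30.8 in controls. Only Slc17a7, the vesicular glutamate transporter of mature cortical neurons, stayed under the background level in both groups. Of 6 oligodendrocyte precursor markers 3 rose, and of 7 neural progenitor markers 2 rose, where 8.58% of all genes tested rose. The part of neuronal RNA in the rise of Fgf12, Fgf13 and Fgf14 was not tested.

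Within each group the order of the mice for these factors followed that of the neuron markers in part. Mutant 3 had the lowest neuron marker sum of the mutants and the lowest Fgf12, Fgf13 and Fgf14. Control 9 had the highest sum of the controls, 4766, and the highest level of all 3 factors (34, 61.4 and 76.1). Mutant 3 was also the dimmest array of its group and control 9 the brightest of its own, with medians of 56.0 and 89.0. In the other mutants the marker sums and the array medians differed in order. Mutant 2, with an array median of 67.3, had the highest neuron marker sum (18725), and mutant 1, at 89.7, had 17219. Among the mutants, Fgf12 followed the order of the array medians, highest in mutant 1 (172.41), then mutants 4 (165.39), 2 (158.04) and 3 (148.44). Fgf13 followed that of the marker sums, and Fgf14 followed neither in full. The part of array brightness in these factors was not tested.

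**Figure D3:**
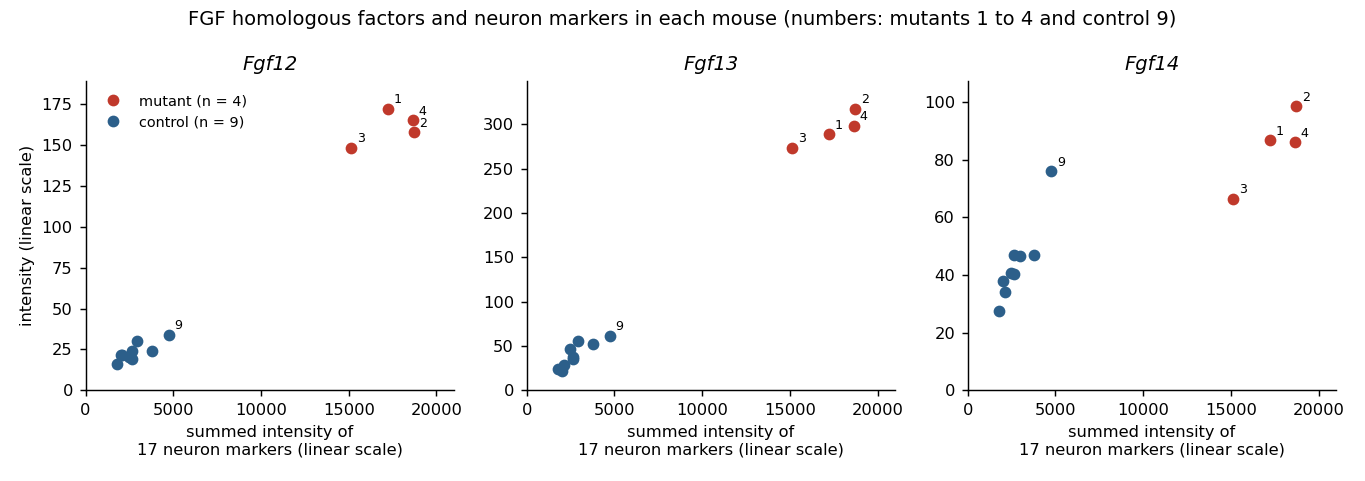
Intensity (linear scale) of Fgf12, Fgf13 and Fgf14 against the summed intensity of 17 neuron markers (linear scale), 1 point per mouse, with the mutants and control 9 numbered. The 4 mutants lie at marker sums of 15140 to 18725 and the 9 controls at 1795 to 4766, and control 9 is the highest control in each panel.

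The 4 receptor genes divided into a pair that fell and a pair that did not pass the test. Fgfr2, the receptor of the FGF7 subfamily in its epithelial form and of bone-forming cells in its mesenchymal form, fell. Its intensities were 247.5, 362.6, 236.4 and 404.6 in mutants, against 383.6 to 513.1 in controls with a median of 479.5. Mutants 1, 2 and 3 lay below every control and mutant 4 lay above controls 1, 6 and 7. The means were 313 ± 83.7 in mutants (SD, n = 4) and 454 ± 52.7 in controls (SD, n = 9), a log2 fold change of -0.54 (SE 0.15, adjusted p = 0.0160). The call on Fgfr2 ended without mutant 1 (adjusted p = 0.0875) or mutant 3 (0.0852), at log2 fold changes of -0.45 and -0.43, among mice of the Y-linked pattern alone (-0.51, 0.172), where 3 controls remain, with Xist as a covariate (-0.49, 0.178) and with unequal variances (0.281). Centring on meningeal fibroblast genes, which moved the median of all genes to 0.47, left Fgfr2 at -0.08 (adjusted p = 0.504). Centring moves every gene by the same amount, so the distance of Fgfr2 from that median, -0.55, cannot change with it.

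Fgfr4, the receptor of muscle and liver and of the endocrine FGF15, had 45.01, 36.5, 30.5 and 34.5 in mutants, against 42.7 to 89.6 in controls with a median of 72.9. Only mutant 1 and control 3 overlapped. The means were 36.6 ± 6.11 in mutants (SD, n = 4) and 67.6 ± 16.3 in controls (SD, n = 9), a log2 fold change of -0.65 (SE 0.16, adjusted p = 0.00670). The background of the array was exceeded in 0 of 4 mutants and 6 of 9 controls, so the fall is at least 1.03-fold when the mutants are set to that level. With the arrays centred on meningeal fibroblast genes the call on Fgfr4 ended, at -0.18 (adjusted p = 0.337). The median of all genes moved to 0.47 there, and the distance of Fgfr4 from it, -0.65, is the same under any centring by construction.

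Fgfr1, the receptor with the widest expression in mesenchyme and in neural tissue, had 459.7, 471.6, 388.8 and 605.7 in mutants and 390.2 to 564.7 in controls, with a control median of 500.9. The means were 481 ± 90.6 in mutants (SD, n = 4) and 488 ± 62.1 in controls (SD, n = 9), a log2 fold change of -0.03 with a 95% interval of -0.31 to 0.26. The range of the mutants covered the whole control range, and the interval leaves out a change of the size measured for Fgfr2. Fgfr3, the receptor of cartilage and of astrocyte precursors, had a log2 fold change of -0.03 (interval -0.40 to 0.34), with 81.2 to 157.9 in mutants and 70.5 to 144.0 in controls.

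Fgfrl1, which binds FGFs but has no kinase domain, had 186.9, 135.7, 104.2 and 164.8 in mutants, against 141.8 to 232.1 in controls with a median of 180.3. Its log2 fold change was -0.29 (interval -0.63 to 0.04, adjusted p = 0.308), with the groups overlapping. It was called lower where arrays were quantile normalized or centred on their median (adjusted p = 0.00906 and 0.00348) and where they were weighted by quality (0.0264).

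Some markers of several cell types fell together with Fgfr2 and Fgfr4. Of all genes tested 6.31% fell. Of 10 endothelial markers 7 fell, with sums of 5380 to 7046 in mutants and 7552 to 15898 in controls. Of 9 macrophage and microglia markers 8 fell (2411 to 4678 in mutants, 6062 to 8297 in controls). The 7 astrocyte markers were divided (2045 to 3373 in mutants, 3214 to 4421 in controls). Of them 3 fell and 4 did not pass the test, 3 had a positive log2 fold change, and the median of the list was -0.09. Among 14 meningeal fibroblast markers 5 fell and 2 rose (26284 to 40714 in mutants, 34298 to 45424 in controls). Of 8 mural cell markers 0 fell and 0 rose (3163 to 3829 in mutants, 2777 to 5400 in controls). None of the listed markers of these 5 cell types was below the background level in both groups. The part of these cell types in the falls of Fgfr2 and Fgfr4 was not tested.

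The 18 secreted ligands, the largest set of the 34, gave no call in either direction. Of these 12 exceeded the background level in at least 1 group, and 1, Fgf1, had an unadjusted p under 0.05. Their log2 fold changes ran from -0.40 to 0.11 with a median of -0.02, and the 95% intervals from -0.80 to 0.56. In all 18 the groups overlapped. With the arrays centred on fibroblast genes, which moved the median of all genes to 0.47, the median of the ligands was 0.45, and with array medians centred it was -0.12. Relative to the median of all genes it was -0.02 under each centring, which moves all genes alike and cannot change this value. With array weights 0 of the 18 ligands were positive, and their median was -0.23, or -0.13 relative to all genes. With quantile normalization 2 were positive, and the median was -0.09, or -0.05 relative to all genes.

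Fgf1 and Fgf2, the acidic and basic FGFs that leave cells without a classical signal peptide, had the lowest fold changes among the ligands. Fgf1 had 116.25 in mutant 1 and 58.95, 57.98 and 57.04 in the other mutants, against 62.0 to 129.4 in controls with a median of 99.2. Thus 3 mutants lay under every control, while mutant 1 lay above 6 of the 9. The log2 fold change of Fgf1 was -0.40 (SE 0.19, adjusted p = 0.212) with all mice and -0.61 (adjusted p = 0.0361) without mutant 1. The array of mutant 1 had the highest median over all probe sets, 89.7, and over the genes tested a median of 117, below that of mutant 4 at 125. Fgf2 had 82.48, 98.6, 70.4 and 115.1 in mutants, against 94.1 to 138.8 in controls with a median of 106.9, a difference of -0.28 on the log2 scale (adjusted p = 0.240). Both Fgf1 and Fgf2 were called lower after quantile normalization (adjusted p = 0.00667 and 0.00685) or median centring (0.00887 and 0.0133).

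The other 16 ligands lay between -0.14 and 0.11 with no adjusted p below 0.816. Fgf15, the mouse counterpart of human FGF19 and a regulator of bile acid synthesis that the embryonic brain also makes, had 417.8, 300.4, 213.7 and 376.7 in mutants, against 264.5 to 425.1 in controls with a median of 361.5 (-0.14, interval -0.50 to 0.21). The endocrine Fgf21 and Fgf23, which act on metabolism and phosphate, had 0.02 and -0.12. Fgf18 of the FGF8 subfamily, a signal for skull bone growth, had 157.6, 122.5, 84.8 and 127.9 in mutants, against 68.9 to 185.2 in controls with a median of 140.1 (-0.09). Its relatives Fgf8 and Fgf17, signals of the forebrain and midbrain organisers, had 0.08 and -0.02. Fgf17 lay close to the background level, at 65.9 in mutants and 67.1 in controls. It exceeded the background of the array in 2 of 4 mutants and 4 of 9 controls.

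In the FGF9 subfamily, Fgf16, which acts in heart and limb, had 258.1, 178.2, 134.2 and 232.5 in mutants, against 136.5 to 255.8 in controls with a median of 214.0 (-0.01). Fgf9 itself, made by neurons and epithelia, had 0.08 and Fgf20, a signal of the inner ear, 0.11. Of the FGF4 subfamily, only Fgf4, a signal of early embryo and limb bud, exceeded the background level, with 118.0, 79.8, 50.4 and 92.7 in mutants and 42.2 to 121.6 in controls (median 84.0). Of the FGF7 subfamily only Fgf22, an organiser of synapses, did, with 128.6, 64.6, 59.97 and 75.0 in mutants and 41.8 to 122.3 in controls (median 92.9). Fgf3, Fgf7 and Fgf10, mesenchymal signals to epithelia, were under the background level in both groups, as were Fgf5 and Fgf6.

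The spread of the ligands within a group was shared among them. Mutant 1, the brightest array by the median over all probe sets, was the highest mutant for 15 of the 18 ligands, and mutant 3, the dimmest of the mutants, was the lowest for 15. Among controls, control 4 was the highest for 11 ligands and control 9 for 7, while control 6, the dimmest array of all, was the lowest for 11. The part of array brightness in the spread of the ligands was not tested.

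**Figure D4:**
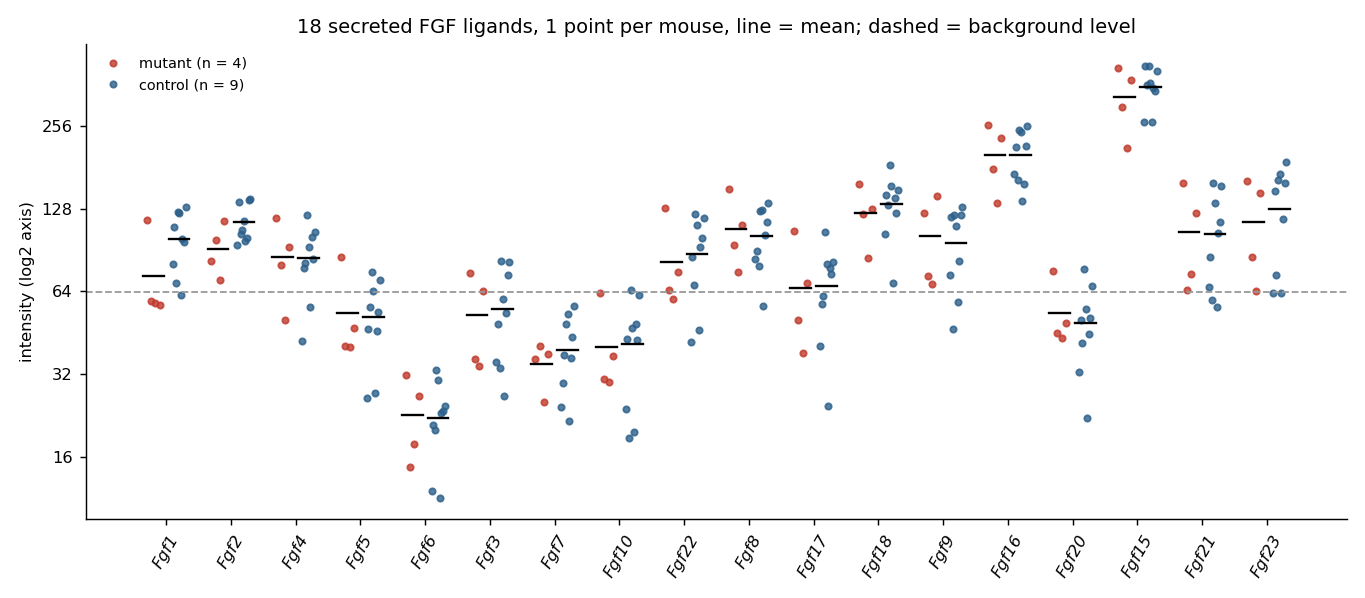
Intensity of the 18 secreted FGF ligands on a log2 axis, 1 point per mouse with mutants left of controls, lines at the group means and a dashed line at the background level of 63.6. Mutants and controls overlap for all 18, and 3 of 4 Fgf1 points in mutants lie below the controls.

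The 7 feedback inhibitors, which restrain the Ras and MAP kinase cascade, gave no call, while all 7 had a positive log2 fold change (0.01 to 0.41, median 0.18). With array medians centred 4 of the 7 were positive, and with quantile normalization or array weights 5 were. Centred on fibroblast genes all 7 were called higher, with a median of 0.64 where the median of all genes was 0.47. Relative to the median of all genes the inhibitors' median was 0.17 under each centring, which cannot change this value. It was 0.15 to 0.20 with quantile normalization or weights.

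Spred2 came closest to the test. This Spred protein recruits neurofibromin to the membrane and thereby lowers Ras activity. Its intensities were 379.2, 392.6, 352.6 and 426.0 in mutants, against 208.0 to 374.2 in controls with a median of 297.9. Mutants 1, 2 and 4 lay above every control, and mutant 3 lay below controls 2 and 6 alone. The means were 388 ± 30.5 in mutants (SD, n = 4) and 292 ± 54.9 in controls (SD, n = 9), a log2 fold change of 0.41 (SE 0.15, adjusted p = 0.0688). Without control 2 or control 6 Spred2 passed the test (0.45, adjusted p = 0.0497 and 0.0347). A second probe set of Spred2 had 252 in mutants and 193 in controls, a difference of 0.37 on the log2 scale (adjusted p = 0.146). Spred3 had 132 in mutants and 97.4 in controls (0.38, adjusted p = 0.190).

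Spred1, the gene of Legius syndrome in humans, had 450.4, 518.7, 436.2 and 525.0 in mutants, against 324.8 to 526.6 in controls with a median of 463.0, and a log2 fold change of 0.09 (interval -0.19 to 0.37). Spry2 had 290.3, 228.5, 194.7 and 253.0 in mutants, against 134.8 to 220.7 in controls with a median of 195.2, and a log2 fold change of 0.36 (SE 0.15, adjusted p = 0.118). Of its mutants, 3 lay above all controls. Spry1 and Spry4 both had values near 0 (0.02 and 0.01) with intervals from -0.34 to 0.38 and from -0.32 to 0.35. Spry3 was under the background level in both groups.

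**Figure D5:**
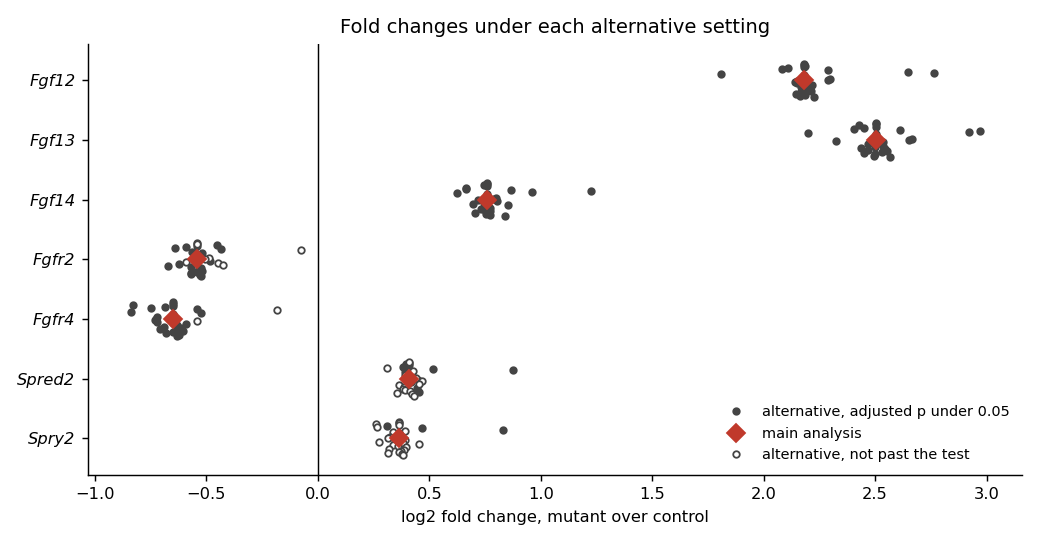
Log2 fold change of mutants over controls under each alternative processing (circles, filled at an adjusted p under 0.05) and as reported (diamonds) for 7 genes. Fgf12, Fgf13 and Fgf14 are filled throughout, Fgfr4 in 28 of 30 and Fgfr2 in 24 of 31 alternatives, Spred2 in 12 of 31 and Spry2 in 3 of 31.

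Transcripts that FGF signalling controls were measured by 10 target and feedback genes. Of these, 1 rose, 0 fell and 9 did not pass the test, with a median of 0.06. Of all genes tested 8.58% rose and 6.31% fell, so this count is near the shares of all genes and is no result about FGF targets. Dusp6, the phosphatase that is a classic readout of FGF signalling, had 910 ± 136 in mutants and 935 ± 194 in controls (-0.03, adjusted p = 0.990). The ETS factors Etv1, Etv4 and Etv5 had 0.16, 0.25 and 0.12. Dusp4, a related phosphatase, rose to 87.6 ± 13.98 in mutants, against 35.3 ± 6.06 in controls, a difference of 1.01 on the log2 scale (adjusted p = 8.67e-06) without overlap. The background of the array was exceeded in 3 of 4 mutants and 1 of 9 controls, so the rise is at least 1.33-fold.

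Proteins that bind FGFs outside the cell or help them reach their receptors were measured by 7 genes, of which 2 fell and 0 rose. Of all genes tested 6.31% fell and 8.58% rose. Kl, which encodes Klotho, the co-receptor of FGF23, had 31.5 ± 6.15 in mutants and 74.6 ± 14.1 in controls, a difference of -0.92 on the log2 scale (adjusted p = 7.24e-05). Fgfbp1, which releases FGFs from the matrix, had 194 ± 71.0 in mutants and 462 ± 96.2 in controls (-1.22, adjusted p = 9.59e-05). In both the highest mutant lay below the lowest control, 39.1 against 56.6 for Kl and 291 against 320 for Fgfbp1. Flrt3, a membrane protein that binds FGF receptors, had 229 in mutants and 318 in controls (-0.46, adjusted p = 0.104). No mutant exceeded its array's background for Kl, so its fall is at least 1.13-fold.

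Heparan sulfate carriers and enzymes were measured by 23 genes, of which 3 rose and 3 fell, all 6 of them core proteins. Of all genes tested 8.58% rose and 6.31% fell. The risen ones were Sdc3, a syndecan of neurons (0.93, adjusted p = 4.16e-04), Gpc2, a glypican of developing neurons (0.80, adjusted p = 0.00261), and Gpc1 (0.47, adjusted p = 0.0254). The fallen ones were Gpc3, a glypican of mesenchyme, at 1248 ± 232 in mutants and 2329 ± 174 in controls (-0.90, adjusted p = 2.31e-05), Gpc6 (-0.47, adjusted p = 0.0376) and Sdc2 (-0.42, adjusted p = 0.0340). No enzyme of heparan sulfate synthesis or trimming passed the test, and Hs3st1 came nearest among them at -0.37 (adjusted p = 0.0846).

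In the intracellular cascade 15 genes were measured, of which 2 fell and 0 rose, where 6.31% of all genes tested fell and 8.58% rose. Map2k1, the MAP kinase kinase MEK1, had 293 ± 49.3 in mutants and 453 ± 45.0 in controls, without overlap (-0.61, adjusted p = 0.00182). The adaptor Shc1 had 453 ± 86.7 in mutants and 655 ± 63.6 in controls (-0.53, adjusted p = 0.00722). Akt1 differed by 0.35 on the log2 scale (adjusted p = 0.0564) and Sos1 by 0.37 (adjusted p = 0.106), and Map2k2, the paralog of Map2k1, had -0.05.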

How the data were processed

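The deposited values are array intensities on a linear scale, 1 per probe set (Affymetrix Mouse Gene 1.0 ST, 35557 probe sets), which the authors made from raw data with PLIER; its version, background step and scaling are not given in the sources used here. No normalization between arrays was added. Of the probe sets, 21789 had 1 gene symbol in the platform table, 1621 had several and 12147 were not listed. Where a gene had several (999 genes) the brightest was kept. Values were taken as log2(intensity + 16), which makes folds of dim genes smaller than their ratios, and mutants were set against controls by the two-sided moderated test of limma 3.58.1 (R 4.3.3). The number of arrays limits the precision. The mice are separate pups of 1 litter, so the p-values measure the spread within that litter. At-least folds set each array of the dimmer group no lower than its own background, the 95th percentile of its olfactory receptor genes, which ran from 30.4 to 99.0. Where per-mouse values are not given for a gene, its means are over 4 mutants and 9 controls.

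All members of the named families were reported. Per-mouse values were given for those past the test, for the brightest of each role group, and also for Fgf1 and Spred2. From the other FGF pathway lists every gene past the test was named. A few that did not pass were named too, not ranked by p. The members and the hand-written lists were chosen with earlier results of these data known. Python 3.11.15 and matplotlib 3.10.9 made the figures. The limma step was tested on simulated data. Each gene was drawn independently there, without differences in brightness shared by all genes of an array, so that test cannot show how such differences affect the fit. Alternatives were other tests, scalings between arrays, constants and filters, a block for the replicate number, a covariate for Xist, and runs without single mice. They were read for the 34 members and for counts of all genes, not for single genes of the other pathway lists. For those genes, Gpc3 among them, the difference in sex composition was therefore not separated from genotype.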

Additional observations from a re-analysis of the deposited data

Results flagged for a closer look

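Among the 34 genes, the values of 68 groups (4 mutants or 9 controls of 1 gene) were searched for a single mouse far from the rest of its group, a criterion that chance meets in about 1 in 20 groups, and 2 met it. Fgf1 had an intensity of 116.25 in mutant 1, against 57.04 to 58.95 in the other 3 mutants. Mutant 1 also had the highest array median over all probe sets (89.7), and it was the highest mutant for 15 of the 18 secreted ligands. It had the highest summed markers of choroid plexus among the mutants (3325, against 620 to 954 in the other 3 and 1208.1 to 1528.5 in controls). Of that sum the single gene Ttr gave 2840.5. Mutant 1 also had the highest sum of skeletal muscle markers among the mutants (757, against 397 to 549, and 344 to 586 in controls). The part of these markers' tissues in its Fgf1 was not tested. Fgf14 had 76.1 in control 9, against 27.5 to 47.07 in the other 8 controls. Control 9 had the highest neuron marker sum of the controls, 4766.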

How the results depend on the processing

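Fgf12, Fgf13 and Fgf14 kept their rise in every alternative, 30, 31 and 30 of them, with log2 fold changes of 1.81 to 2.77, 2.20 to 2.97 and 0.63 to 1.23. Fgfr4 kept its fall in 28 of 30 and Fgfr2 in 24 of 31. FGF members risen were 3 as reported, 6 with quantile normalization (Spred2, Spred3 and Spry2 added), 5 centred on reference genes and 11 centred on fibroblast genes, where Fgfr1 turned to 0.44 (adjusted p = 0.00393). FGF members fallen were 2 as reported. They were 0 by the p and fold rule of the methods' t-test and centred on fibroblast genes. They were 1 with unequal variances, with Xist as a covariate or in mice of the Y-linked pattern alone. Without the dimmest 50% of genes they were also 1, but there 16 of the 34 members were tested, and Fgfr4 was not among them. They were 4 with array weights, 5 centred on array medians and 6 with quantile normalization. All genes risen were 1710 as reported, 653 by the p and fold rule, 1139 with unequal variances, 2668 with quantile normalization, 2632 with reference genes as the centre and 10766 with fibroblast genes. All genes fallen were 1258 as reported, 159 by the p and fold rule, 400 with unequal variances, 2023 with array weights, 3617 with quantile normalization, 2862 centred on array medians, 350 on fibroblast genes, 605 with Xist as a covariate and 644 in mice of the Y-linked pattern. Centring moved the median of all genes to -0.09 (array medians), 0.11 (reference genes) and 0.47 (fibroblast genes), and the share of calls that were higher, 57.6% as reported, was 38.7%, 70.8% and 96.9% there, and 42.5% with quantile normalization. The cause of these shifts was not tested. Without 1 mouse, FGF members risen ranged from 3 to 4, FGF members fallen from 1 to 2, All genes risen from 1331 to 1904 and All genes fallen from 777 (without mutant 3) to 1490. The 2 members fallen without mutant 1 were Fgfr4 and Fgf1 (limma adjusted p = 0.0361 for Fgf1), since Fgfr2 lost its call there (0.0875).

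With the replicate number as a block, FGF members risen were 3, FGF members fallen 0 (Fgfr2 -0.59, adjusted p = 0.0514, and Fgfr4 -0.54, adjusted p = 0.110), All genes risen 1284 and All genes fallen 545. Mice of the same number did not deviate together (correlations of -0.34, 0.16, 0.31 and -0.09), which gave no ground to treat them as pairs, and no mutant bears the numbers of controls 5 to 9. The signal of the 8 genes under the background level in both groups, of Fgf17, and of Fgfr4 in mutants, is too low to show small changes.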
